A study of Mus musculus with 2 samples.

Results

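The voltage-gated sodium, calcium and potassium channels, together with the other potassium channel families and the HCN channels, were examined on one-colour Agilent microarrays of differentiating mouse embryonic stem cells. Genes were taken by name alone. They are those whose symbol on the array begins with Scn, Cacn or Kcn followed by the family letters and number of a subunit, or are the genes of the HCN channels. This gave 277 probes for 135 genes, of 32946 named genes on the array, and the genes fell into 11 channel classes. Alongside the pore-forming subunits the names also take in beta, gamma and alpha-2-delta subunits and the cytoplasmic partners of potassium channels.

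The study compared 46C cells labelled KO-Linc1548 with WT 46C cells, each on day 5 of neural differentiation. Linc1548 is a long intergenic non-coding RNA, and 46C is a mouse embryonic stem cell line with a GFP reporter at the Sox1 locus, which both groups carry. In both, dissociated cells were re-aggregated in low-adhesion dishes in a medium with knockout serum replacement. Each group had 1 array. How the knockout was made and how many clones it represents are not given in the sources used here, and the level of Linc1548 itself was not read. With 1 array per group no difference has a replicate check and no test was run. Culture and position on the slide go with the genotype and cannot be told apart from it, although both arrays shared a slide and a scan. The number of arrays limits the precision of every value.

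Voltage-gated channels open or close with the membrane potential. Sodium channels carry the upstroke of the neuronal action potential, calcium channels admit the calcium that drives release and gene regulation, and potassium channels repolarise the cell. Inward rectifiers and tandem-pore (K2P) channels set the resting potential, calcium-activated potassium channels follow bursts of calcium entry, and HCN channels carry a current that opens on hyperpolarisation. Channel subunits are switched on in steps as neural progenitors become neurons. Embryonic stem cells also carry some potassium and calcium channels. In a bulk sample, fewer cells of a type and less RNA per cell cannot be told apart.

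Each value rests on probes of 60 bases, and where a probe lies decides which transcript it reads. The sequences of 7 probes that lie in coding sequence are shown because the results below turn on what they read. Positions are those in the files, on mouse build mm9. The Cacna1g probe lies at chr11:94270459-94270518 on the minus strand and ends on the stop codon, which is in capitals. The Cacng4 probe is at chr11:107596096-107596155 on the minus strand. The Kcnmb4 probe is at chr10:115910498-115910557 on the minus strand, near the 5′ end of its transcript, and the Cacna2d1 probe is at chr5:15864758-15864817 on the plus strand. The Kcnn1 probe crosses an intron, spanning chr8:73376967-73378580 on the minus strand. The Kcnj3 probe is at chr2:55290214-55290273 on the plus strand and the Kcnq5 probe at chr1:21447515-21447574 on the minus strand.
Cacna1g: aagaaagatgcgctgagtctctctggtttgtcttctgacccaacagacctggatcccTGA
Cacng4: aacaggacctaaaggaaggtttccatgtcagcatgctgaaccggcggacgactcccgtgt
Kcnmb4: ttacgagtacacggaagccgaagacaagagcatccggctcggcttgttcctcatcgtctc
Cacna2d1: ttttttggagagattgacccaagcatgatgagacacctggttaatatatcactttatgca
Kcnn1: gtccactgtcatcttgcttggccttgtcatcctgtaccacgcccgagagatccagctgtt
Kcnj3: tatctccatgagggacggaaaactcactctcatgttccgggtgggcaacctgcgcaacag
Kcnq5: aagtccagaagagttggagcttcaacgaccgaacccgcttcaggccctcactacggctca

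Fewer channel genes were detected on the KO array than on the WT array. A probe was called detected where at least the share 0.5 of its spots was well above background in the scanner software. By that rule 116 of the 277 channel probes (41.9%) were detected on the KO array and 141 (50.9%) on the WT array. Over all named genes the shares of probes were 59.5% on the KO array and 62.4% on the WT array. Counted by gene, 81 channel genes (60%) had a detected probe on the KO array and 91 (67.4%) on the WT array. Among all named genes the shares were 59.6% on the KO array and 61.5% on the WT array. By gene, the channel share thus lay near that of all named genes on the KO array and above it on the WT array. By probe, it lay below that of all named genes on both arrays. In 76 genes (56.3%) the same probe was detected on both arrays, against 56.7% of all named genes, and these are called measured. A further 14 genes were detected on the WT array alone, 10.4% of the channel genes, against 4.83% of all named genes. Only 4 genes (2.96%) were detected on the KO array alone, against 2.9% of all named genes. The 2 probes of Cacnb4 split between the arrays, and 40 genes lay below background on both. The lowest scaled signal called well above background was 30.5 on the KO array and 21.3 on the WT array, and its part in these counts was not tested.

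**Figure D1:**
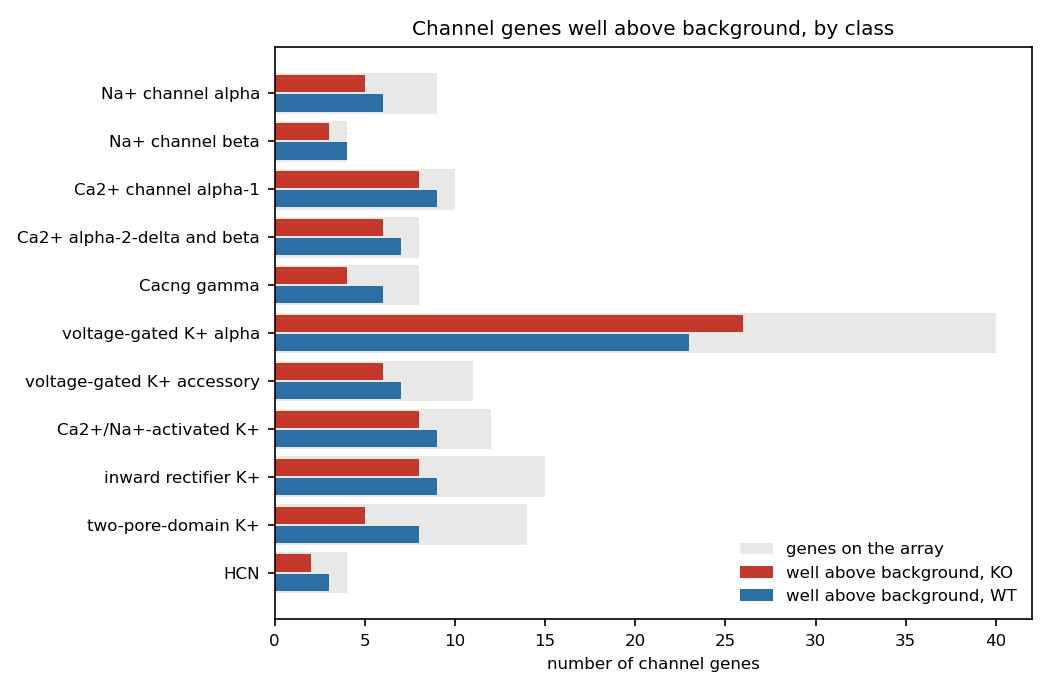
Number of channel genes (horizontal axis) in each of the 11 classes (vertical axis). Pale bars are the genes on the array, red bars those well above background on the KO array and blue bars those on the WT array; the voltage-gated potassium alpha subunits have more genes detected on the KO array (26) than on the WT array (23), and the other classes have fewer.

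As the plot of detected genes by class shows, 10 classes had fewer genes detected on the KO array. The K2P channels had 5 genes detected on the KO array and 8 on the WT array, of 14. The gamma subunits had 4 on the KO array and 6 on the WT array, of 8. Only the voltage-gated potassium alpha subunits ran the other way, with 26 and 23 of 40. Sodium channels as a whole had 8 genes detected on the KO array and 10 on the WT array, of 13. Calcium channels had 18 on the KO array and 22 on the WT array, of 26.

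Channel genes lay at least 2-fold from the WT array in both directions. Signals were scaled to a common 75th percentile, and each gene was given the median of the log2 differences, KO minus WT, of its measured probes. Of the 76 measured genes, 15 were at least 2-fold lower in KO (19.7%), against 8.81% of 18671 measured genes on the array. Another 14 were at least 2-fold higher (18.4%), against 11.5% of all measured genes. Both directions together made 29 genes (38.2%), against 20.3% of all measured genes, and the other 47 lay within 2-fold. Differences ran between −2.64 for Cacng4 and 2.54 for Cacna1s, and the median over the channel genes was 0.08, close to 0.10 over all genes. Potassium channels held 11 of the genes higher in KO and 9 of those lower, of 49 measured. Sodium channels had 2 lower and 0 higher, of 8 measured.

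**Figure D2:**
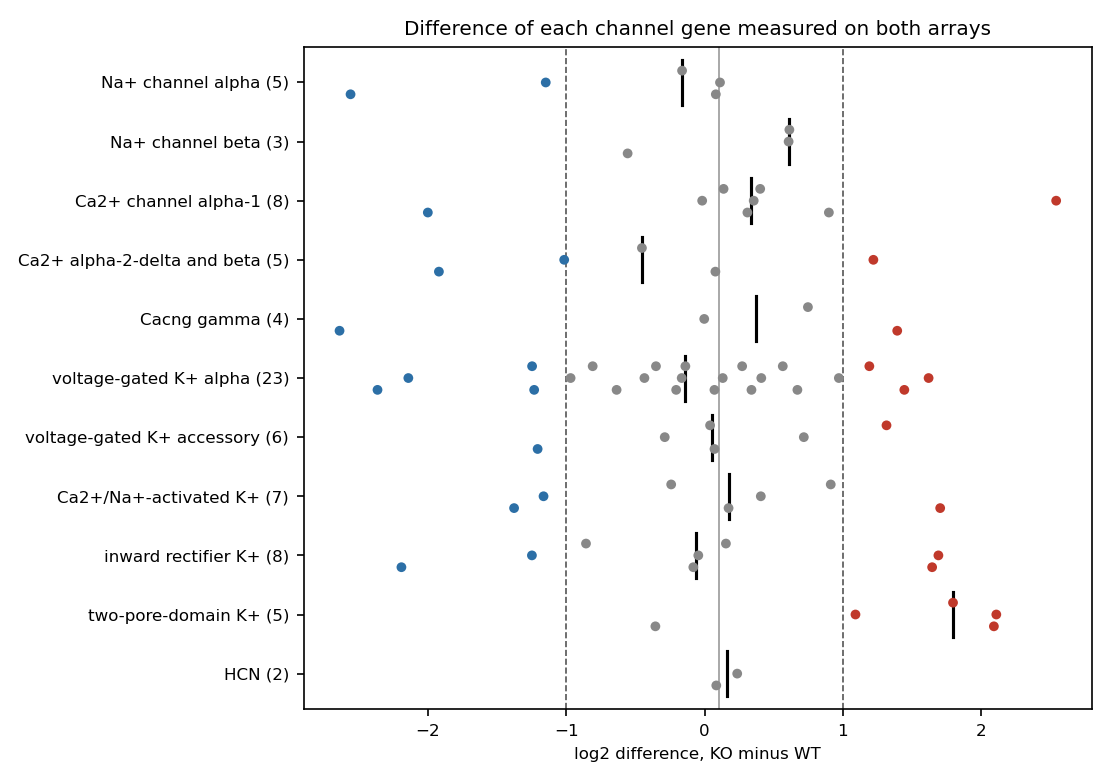
Log2 difference, KO minus WT (horizontal axis), of each of the 76 channel genes measured on both arrays, by class with the number of genes in brackets (vertical axis). Each point is 1 gene, red where at least 2-fold higher in KO and blue where at least 2-fold lower; short black bars are class medians, dashed lines mark 2-fold and the grey line is the median over all genes on the array (0.10). The K2P channels have 4 of their 5 points past 2-fold on the higher side.

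The counts depend on dim probes and on the scaling. Measured channel probes had a median scaled signal of 158 on the KO array and 171 on the WT array, against 613 and 614 for all probes of named genes. With a signal of at least 100 required on both arrays, 43 channel genes remained measured, of which 7 (16.3%) were at least 2-fold lower and 6 (14.0%) higher. The same rule gave 7.82% lower and 9.22% higher over all genes. Centring on the spike-in control RNAs shifted every difference by −0.46, which left 8 channel genes higher (10.5%, against 7.02% of all genes) and made 20 lower (26.3%, against 17.9%). The higher genes that then lay under 2-fold were Cacnb1, Cacng6, Kcnh3, Kcnip2, Kcnk13 and Kcns3. By construction this moves every set of genes toward lower calls. The share of lower genes among those called was 51.7% with the main scaling (43.3% over all genes) and 71.4% with the spike-in scaling (71.8% over all genes). With normexp background correction, which pulls dim signals together, 7 genes were lower (9.21%, against 5.61% of all genes) and 8 higher (10.5%, against 8.34%). Cacna2d1, Cacnb2, Kcng1, Kcnh2, Kcnip1, Kcnj10, Kcnmb4 and Scn1a then lay under 2-fold on the lower side, and Cacnb1, Cacng6, Kcnip2, Kcnj9, Kcnk13 and Kcns3 on the higher side.

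Markers of some cell types differed widely between the arrays. Over all measured genes 11.5% were at least 2-fold higher in KO and 8.81% lower. Of 10 progenitor markers, 10 were at least 2-fold lower in KO, with a median log2 difference of −2.67 and a summed signal of 12209 on the KO array and 129063 on the WT array. Among 16 neuronal markers there were 12 at least 2-fold lower in KO and 0 higher, with a median of −1.98 and sums of 63770.8 on the KO array and 97869.9 on the WT array. Without Stmn2, the brightest, the sums were 17912 on the KO array and 66707 on the WT array. Of 10 markers of pluripotent cells, 10 were at least 2-fold higher, with sums of 126244 on the KO array and 15066 on the WT array. All the markers of these 3 lists were detected on both arrays. Of 9 measured cardiac and smooth muscle markers, 3 were higher and 1 was lower, with sums of 16941 on the KO array and 17681 on the WT array, and Tnnt2 lay below background on both. Astrocyte and oligodendrocyte markers had 1 higher and 0 lower of 8 measured, with sums of 4269 on the KO array and 4435 on the WT array. Endothelial and blood markers had 3 higher and 1 lower of 9, with sums of 9912 on the KO array and 6945 on the WT array, and endodermal markers had 3 higher and 2 lower of 8, with a median difference of 0.26 and sums of 8397 on the KO array and 24345 on the WT array. Without Foxa2, the brightest, the endodermal sums were 2421 on the KO array and 2375 on the WT array. The muscle, glial, endothelial and blood, and endodermal lists are too short to set their counts apart from the shares over all genes. The part of the marker differences in the channel results was not tested.

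**Figure D3:**
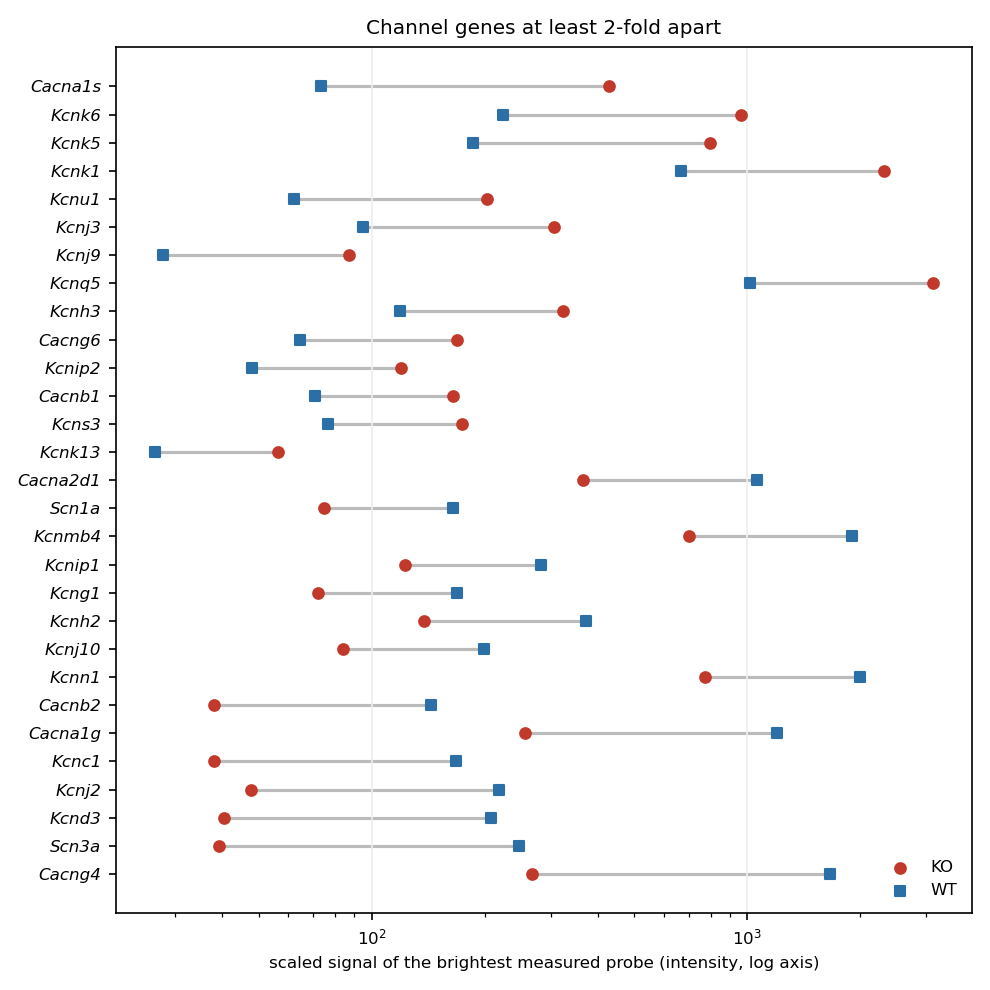
Scaled signal (horizontal axis, log scale) of the brightest measured probe of each of the 29 channel genes at least 2-fold apart (vertical axis). Red circles are the KO array, blue squares the WT array, and a grey line joins the 2 signals of a gene; the genes higher in KO stand at the top in order of difference and those lower in KO at the bottom, with Cacng4 last at 267 on the KO array and 1665 on the WT array.

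The plot of signals for the 29 genes shows how many of them rest on dim readings. In 17 of the 29, the signal of the brightest measured probe was under 100 on at least 1 array. Among the 14 genes higher in KO, 10 had a single probe on the array and none had several measured probes. Among the 15 genes lower in KO, 6 had several measured probes, namely Cacna1g, Cacna2d1, Kcnh2, Kcnmb4, Kcnn1 and Scn3a. In 11 of the 29 genes, 8 of them lower and 3 higher, another probe of the gene lay below background on both arrays. Kcnd3, Kcnip1, Kcnj2 and Kcnk6 are among these, each measured on 1 of its 2 probes.

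The stretches of 250 bases upstream of RefSeq transcription starts were read for 98 of the 135 genes (build GRCm38.p6). Their median GC content was 60.1%, against 52.4% over 27025 genes. A gene counted for a motif where any of its windows held it. The E-box CAGCTG, a sequence bound by neurogenic bHLH factors, was found for 26 of the 98 genes (26.5%), against 14.7% of all. By window it was in 24.1% of 133 windows of channel genes, against 13.0% of 32851 windows. GGGCGG, the core of a GC box, was found on either strand for 58.2% of the genes, against 35.4%. By window it was in 43.6%, against 32.7%. The TATA sequence TATAAA was found for 4.08% of the genes, against 14.3%, and in 3.01% of windows, against 12.4%. Letters GGACAGC, part of the REST element, were found for 10 genes (10.2%), against 6.14%, and in 7.52% of windows, against 5.28%. TTCAGCACC, another part of that element, was found for 1 gene (1.02%), against 0.348%, and in 0.752% of windows, against 0.301%. Of 11 genes lower in KO with a promoter in the table, 5 held CAGCTG, 9 held GGGCGG and 0 held GGACAGC. Of 11 genes higher in KO, 2 held CAGCTG, 5 held GGGCGG and 3 held GGACAGC, and of 30 genes within 2-fold 7, 18 and 3 did. A match describes letters in a window and is not a binding site. Both strands were read for each motif, and GGACAGC and CAGCTG can share letters. Promoters are shown for 2 genes from each end of the range. Capitals mark CAGCTG and GGGCGG on either strand. Kcnd3 is at chr3:105451640-105451889 on the plus strand, Kcnj2 at chr11:111065914-111066163 on the plus strand, Cacna1s at chr1:136052561-136052810 on the plus strand and Kcnk5 at chr14:20181783-20182032 on the minus strand.
Kcnd3: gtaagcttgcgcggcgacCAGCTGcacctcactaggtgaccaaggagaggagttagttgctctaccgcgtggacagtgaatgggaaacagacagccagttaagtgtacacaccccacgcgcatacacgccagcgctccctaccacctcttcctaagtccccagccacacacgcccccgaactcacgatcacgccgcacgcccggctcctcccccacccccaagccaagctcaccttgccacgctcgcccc
Kcnj2: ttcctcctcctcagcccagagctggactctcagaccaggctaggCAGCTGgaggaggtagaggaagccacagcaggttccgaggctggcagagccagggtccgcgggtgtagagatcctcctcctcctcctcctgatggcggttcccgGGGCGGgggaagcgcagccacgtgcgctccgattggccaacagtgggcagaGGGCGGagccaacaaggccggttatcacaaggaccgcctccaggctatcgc
Cacna1s: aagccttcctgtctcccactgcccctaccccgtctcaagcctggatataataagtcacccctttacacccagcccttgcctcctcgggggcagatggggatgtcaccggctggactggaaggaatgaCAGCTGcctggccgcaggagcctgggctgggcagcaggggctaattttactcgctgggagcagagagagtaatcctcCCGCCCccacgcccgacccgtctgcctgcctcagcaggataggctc
Kcnk5: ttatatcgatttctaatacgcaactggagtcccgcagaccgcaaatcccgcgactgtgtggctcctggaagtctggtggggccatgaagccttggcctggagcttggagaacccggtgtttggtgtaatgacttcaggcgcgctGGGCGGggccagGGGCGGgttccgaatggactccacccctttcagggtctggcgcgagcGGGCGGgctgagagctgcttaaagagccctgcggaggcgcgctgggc
The Kcnd3 window holds 1 CAGCTG and the Kcnj2 window 1 CAGCTG and 2 GGGCGG, both upstream of genes lower in KO. Upstream of genes higher in KO, the Cacna1s window holds 1 CAGCTG and 1 GGGCGG and the Kcnk5 window 3 GGGCGG.

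Among sodium channel alpha subunits, which form the pore, 5 of 9 genes were measured, 2 were at least 2-fold lower in KO and 0 higher. Scn3a, the alpha subunit known for its high level in embryonic brain, read 39.2 on the KO array and 247 on the WT array on one probe and 38.4 on the KO array and 211 on the WT array on another. Both probes were thus far lower in KO, and the gene was 5.89-fold lower (log2 difference −2.56). The KO readings lie close to 30.5, the lowest signal called well above background on that array, so the size of this fold is uncertain, and the other 3 Scn3a probes were below background on both arrays. Scn1a, the main alpha subunit of fast-spiking inhibitory neurons, read 74.5 on the KO array and 165 on the WT array, 2.22-fold lower. It was measured on 1 of its 5 probes. Scn8a, the alpha subunit of nodes of Ranvier and axon initial segments, differed by 0.11 over 4 measured probes that ranged between −0.84 and 0.41. Its brightest probe read 4832 on the KO array and 3629 on the WT array. Scn4a, the skeletal muscle subunit, read 49.6 on the KO array and 55.5 on the WT array. Scn9a and Scn10a, subunits of peripheral sensory neurons, and the sodium-sensing Scn7a lay below background on both arrays. Scn11a, also a subunit of sensory neurons, was near background, with 12.9 on the KO array, not well above background there, and 26.4 on the WT array.

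The sodium channel beta subunits are single-span proteins that modulate gating and adhere to other cells. None of the 3 measured was 2-fold apart. Scn2b differed by 0.61, with 317 on the KO array and 208 on the WT array. Scn3b read 240.2 on the KO array and 353 on the WT array, a difference of −0.56. Scn4b was detected on the WT array alone, close to background, with 27.0 on the KO array and 28.6 on the WT array.

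Calcium channel alpha-1 subunits form the calcium pore, and 8 of 10 were measured, 1 of them at least 2-fold lower in KO and 1 higher. Cacna1g, a low-voltage-activated T-type subunit, read 256 on the KO array and 1198 on the WT array on its brightest probe. The coding probe printed above read 223 on the KO array and 765 on the WT array, so that both probes were lower in KO, and the gene was 4.00-fold lower. Cacna1s, the L-type subunit that serves as voltage sensor of skeletal muscle, read 428 on the KO array and 73.5 on the WT array, 5.82-fold higher. It has a single probe. The other T-type subunits were measured close together on the 2 arrays, with Cacna1h at 394 on the KO array and 318 on the WT array and Cacna1i at 54.9 on the KO array and 49.9 on the WT array. Cacna1h was measured on 1 of its 4 probes, and 2 others were detected on the WT array alone, near background. The subunits of neuronal presynaptic terminals, Cacna1a and Cacna1b, differed by −0.02 and 0.90. Cacna1a read 1692 on the KO array and 1759 on the WT array on its brightest probe. Cacna1c, the L-type subunit of heart and brain, was detected on the WT array alone on 2 of its 4 probes. The brighter read 19.0 on the KO array and 263 on the WT array, at least 8.63-fold lower in KO. Cacna1d, an L-type subunit, differed by 0.40 on its measured probe, but one of its 2 probes on a RefSeq transcript was detected on the WT array alone, with 10.4 on the KO array and 255 on the WT array, at least 8.37-fold lower in KO. Cacna1e, the R-type subunit, differed by 0.36 on its measured probe and had another detected on the WT array alone, with 30.5 on the KO array and 131 on the WT array, at least 4.28-fold lower. The probes of each of these 2 genes disagree. Cacna1f, a retinal subunit, lay below background on both arrays.

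The alpha-2-delta and beta subunits carry alpha-1 to the membrane and set its current. Of 8 genes 5 were measured, 2 of them at least 2-fold lower in KO and 1 higher. Cacna2d1, which binds gabapentin, had 6 measured probes that ranged between −1.60 and 0.23, with a median difference of −1.01 (2.02-fold lower). Its printed coding probe read 57.1 on the KO array and 173 on the WT array, and its brightest probe 366 on the KO array and 1060.2 on the WT array. The 2 probes nearest to no difference share an Ensembl transcript model that no other Cacna2d1 probe names. Cacna2d3 was detected on the WT array alone, with 14.5 on the KO array and 172 on the WT array, at least 5.65-fold lower in KO. Cacna2d2 read 476 on the KO array and 652 on the WT array. Cacnb2 read 38.2 on the KO array and 144 on the WT array on 1 of 5 probes, 3.78-fold lower, and Cacnb1, the skeletal muscle beta subunit, read 165 on the KO array and 70.8 on the WT array, 2.33-fold higher. Cacnb3 was at 1420.0 on the KO array and 1345 on the WT array, so the beta subunits did not share a direction. Cacnb4 had one probe at 104 on the KO array and 6.38 on the WT array and another at 6.49 on the KO array and 27.5 on the WT array, each well above background where it was bright. The second of these shares between 25 and 34 bases with probes of 5 other genes, 3 of them on the same strand, and no value was given to Cacnb4.

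The Cacng genes take in subunits of muscle calcium channels and the transmembrane AMPA receptor regulatory proteins (TARPs), which bring AMPA glutamate receptors to the synapse. Of 8 genes 4 were measured. Cacng4, a TARP, read 267 on the KO array and 1665 on the WT array and had the lowest difference of all measured channel genes, 6.23-fold lower in KO. The second Cacng4 probe, printed above, read 7.86 on the KO array, not well above background, and 90.4 on the WT array. Both probes of the gene were therefore low in KO. Cacng7, another TARP, had 1 probe at −0.42 and the other at 0.42, which cancelled in the median. Cacng8, also a TARP, read 77.5 on the KO array and 46.2 on the WT array. Cacng6 read 169 on the KO array and 64.3 on the WT array, 2.63-fold higher in KO. Cacng2, the TARP mutated in the stargazer mouse, and Cacng3 were detected on the WT array alone, near background, with 18.3 and 6.28 on the KO array and 25.5 and 35.0 on the WT array. Cacng1 and Cacng5 lay below background on both arrays.

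Voltage-gated potassium alpha subunits were the largest class, with 40 genes, of which 23 were measured, 4 were at least 2-fold lower in KO and 3 higher. Kcnd3, which carries the fast A-type current, read 40.5 on the KO array and 209 on the WT array, 5.15-fold lower. Kcnc1, which lets neurons fire at high rates, read 38.1 on the KO array and 168 on the WT array, 4.41-fold lower. Kcnh2, the ERG channel of the heart and other excitable cells, was lower on both probes, at 138 on the KO array and 373 on the WT array and at 126 on the KO array and 263 on the WT array (2.37-fold). Kcng1, a silent subunit that modifies Kcnb channels, read 71.9 on the KO array and 169 on the WT array, 2.35-fold lower. The low KO signals of Kcnd3 and Kcnc1 are close to the lowest signal called well above background on that array, 30.5, so their folds are uncertain.

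The 3 alpha subunits higher in KO came from other subfamilies. Kcnq5, which contributes to the neuronal M-current, read 3129 on the KO array and 1018 on the WT array on 1 of 5 probes, 3.07-fold higher. That probe lies on an Ensembl transcript model that no other Kcnq5 probe names, and the other 4 Kcnq5 probes lay below background on both arrays, among them the coding probe printed above with 10.6 on the KO array and 13.2 on the WT array. Kcnh3, an ELK channel of the forebrain, read 324 on the KO array and 119 on the WT array, 2.72-fold higher. Kcns3, a second silent subunit, read 174 on the KO array and 76.4 on the WT array, 2.28-fold higher, opposite to Kcng1.

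Detection on the KO array alone was found for 3 alpha subunits, and on the WT array alone for none. Kcnq1, the slow cardiac and epithelial subunit, read 104 on the KO array and 11.1 on the WT array, at least 4.91-fold higher, on 1 of 5 probes. Kcnq3 read 47.6 on the KO array and 4.67 on the WT array, at least 2.24-fold higher. Kcnc4 read 47.0 on the KO array and 13.3 on the WT array, at least 2.21-fold higher. Of the Kcna genes, most of which carry delayed rectifier currents, Kcna1 read 42.2 on the KO array and 82.5 on the WT array. Its difference was −0.97, and Kcna6 differed by −0.64. Kcna5 differed by 0.41 and Kcna7 by 0.34, and Kcna2, Kcna3, Kcna4 and Kcna10 were below background on both arrays.

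Accessory subunits of voltage-gated potassium channels had 6 of 11 genes measured, 1 of them at least 2-fold lower in KO and 1 higher. Both belong to the KChIP proteins, calcium-binding partners of the Kcnd channels. Kcnip1 read 123 on the KO array and 283 on the WT array, 2.31-fold lower, and Kcnip2 read 119.6 on the KO array and 48.1 on the WT array, 2.49-fold higher. Kcnip3, which also acts as a transcriptional repressor, differed by 0.72 over 3 probes between −0.36 and 0.91. Kcne3, a single-span subunit of Kcnq channels, was detected on the WT array alone, with 17.7 on the KO array and 105 on the WT array, at least 3.46-fold lower in KO. The cytoplasmic beta subunits Kcnab1 and Kcnab3 were level on their measured probes, with differences of 0.04 and 0.07. The other Kcnab1 probe was detected on the WT array alone, with 21.8 on the KO array and 48.1 on the WT array, at least 1.58-fold lower in KO.

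Among calcium- and sodium-activated potassium channels, 7 of 12 genes were measured, 2 were at least 2-fold lower in KO and 1 higher. Kcnmb4, the brain beta subunit of BK channels, was lower on its 3′ probe, with 702 on the KO array and 1908 on the WT array. Its printed 5′ probe was lower too, with 104 on the KO array and 193 on the WT array, and the gene was 2.24-fold lower. Kcnn1, a small-conductance (SK) channel, read 771 on the KO array and 2002 on the WT array on its brightest probe and 245 on the KO array and 638 on the WT array on another, 2.60-fold lower. The printed Kcnn1 probe across an exon junction was higher in KO, with 71.6 on the KO array and 34.8 on the WT array. It was the only channel gene with probes at least 2-fold apart in both directions. Kcnu1, the sperm-specific SLO channel, read 202 on the KO array and 62.1 on the WT array, 3.26-fold higher. Kcnt1, a sodium-activated channel, was detected on the KO array alone, with 144 on the KO array and 13.9 on the WT array, at least 6.75-fold higher. Kcnn3, another SK channel, was detected on the WT array alone, with 17.9 on the KO array and 63.8 on the WT array, at least 2.09-fold lower. Kcnma1, the BK pore, read 104 on the KO array and 92.0 on the WT array on 1 of its 6 probes. Another 4 Kcnma1 probes were detected on the WT array alone, near background, the brightest at 23.0 on the KO array and 41.1 on the WT array.

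The inwardly rectifying potassium channels had 8 of 15 genes measured, 2 at least 2-fold lower in KO and 2 higher. Kcnj2, a strong rectifier that holds the resting potential of muscle and neurons, read 47.8 on the KO array and 218 on the WT array, 4.57-fold lower. Its other probe lay below background on both arrays, with 7.10 on the KO array and 10.5 on the WT array. Kcnj12 and Kcnj4, which belong to the same strong rectifiers, differed by −0.86 and −0.05. Kcnj10, the channel through which glia take up potassium, read 83.8 on the KO array and 199 on the WT array, 2.37-fold lower. The 2 higher genes are both G-protein-gated (GIRK) subunits. Kcnj3 read 306 on the KO array and 95.0 on the WT array, 3.23-fold higher, and its printed coding probe read 103 on the KO array and 21.3 on the WT array, not well above background there. Kcnj9 read 87.3 on the KO array and 27.9 on the WT array, 3.13-fold higher. That WT reading lies close to 21.3, the lowest signal called well above background on the WT array, so the size of the fold is uncertain. The other GIRK genes gave no value. Kcnj5 was detected on the WT array alone, with 27.3 on the KO array and 28.0 on the WT array, and Kcnj6 lay below background on both.

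The K2P channels carry leak currents, and they were the class with the highest median difference, 1.80, over 5 measured genes of 14. The 4 at least 2-fold higher in KO were Kcnk6, Kcnk5, Kcnk1 and Kcnk13, and none was lower by that much. Kcnk6 read 966 on the KO array and 224 on the WT array, 4.31-fold higher, and Kcnk1, from the same TWIK subfamily, read 2317 on the KO array and 667 on the WT array, 3.47-fold higher. Kcnk5, an alkali-activated channel known from kidney epithelium, read 795 on the KO array and 187 on the WT array, 4.26-fold higher. Kcnk13 was dim on both arrays, with 56.4 on the KO array and 26.5 on the WT array. Kcnk4, a mechanosensitive channel, read 316 on the KO array and 405 on the WT array. Kcnk10, from the same TREK subfamily as Kcnk4, was detected on the WT array alone, with 23.0 on the KO array and 408 on the WT array, at least 13.4-fold lower in KO. Its other probe lay below background on both arrays, with 7.04 on the KO array and 17.7 on the WT array. Kcnk15 and Kcnk16 were also detected on the WT array alone, near background. Over the alternative scalings and background correction the K2P count was 3 or 4, with Kcnk13 under 2-fold in some.

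The HCN channels had 2 of 4 genes measured, and neither was 2-fold apart. Hcn2, a subunit of heart and brain pacemaker currents, read 10018.5 on the KO array and 8506 on the WT array, a difference of 0.24. Hcn3 differed by 0.08. Hcn4, the main subunit of the sinoatrial node, was detected on the WT array alone, with 26.9 on the KO array and 57.8 on the WT array, at least 1.90-fold lower in KO.

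**Figure D4:**
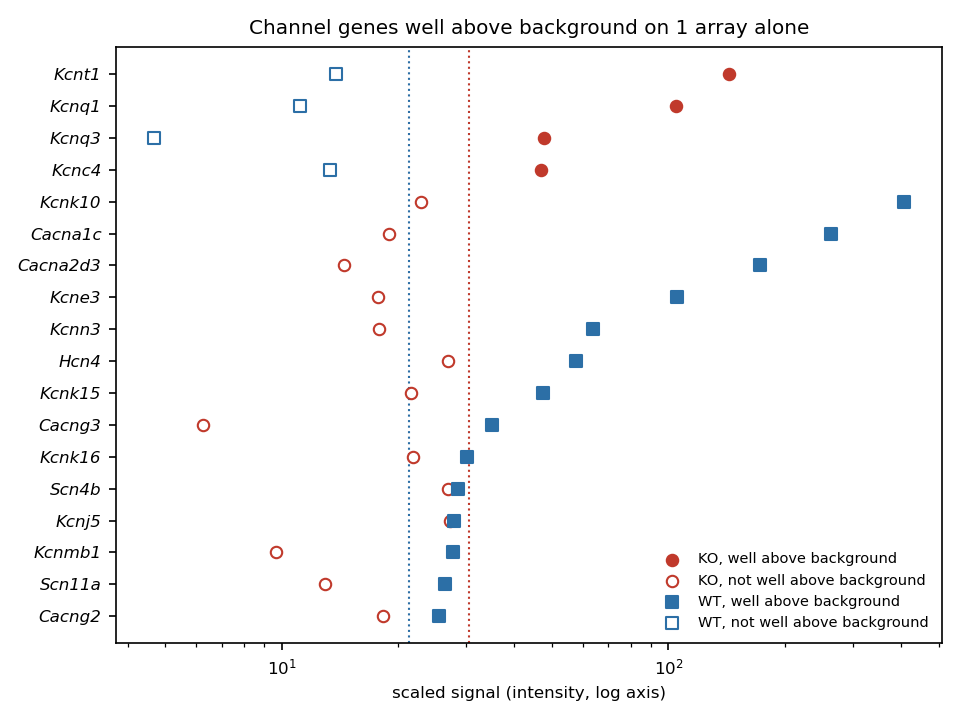
Scaled signal (horizontal axis, log scale) of the 18 channel genes detected on 1 array alone (vertical axis). Circles are the KO array and squares the WT array, filled where the probe was well above background and open where it was not; dotted lines mark the lowest signal called well above background, 30.5 on the KO array (red) and 21.3 on the WT array (blue). Kcnk10, Cacna1c and Cacna2d3 lie farthest from the line on the WT side, and Kcnt1 and Kcnq1 on the KO side.

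The plot of the 18 genes detected on 1 array alone separates clear cases from marginal ones. For these genes the fold is a lower bound, namely the signal on the brighter array over the higher of the dim probe's own signal and the lowest signal called well above background on the other array. The bound reached 2-fold for 4 of 4 genes detected on the KO array alone and for 5 of 14 genes detected on the WT array alone. These counts cannot be compared directly. The lowest signal called well above background was 21.3 on the WT array and 30.5 on the KO array. A gene detected on the KO array alone therefore reaches 2-fold at a lower signal. The same bound was not computed over all named genes. Kcnk15 and Cacng3 had bounds of 1.55 and 1.15, and for Cacng2, Kcnmb1, Kcnj5, Kcnk16, Scn11a and Scn4b no fold could be given. The WT signals of these 6 genes all lay under 30.5, the lowest signal called well above background on the KO array. Kcnmb1, a smooth muscle BK beta subunit, read 9.66 on the KO array and 27.8 on the WT array.

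**Figure D5:**
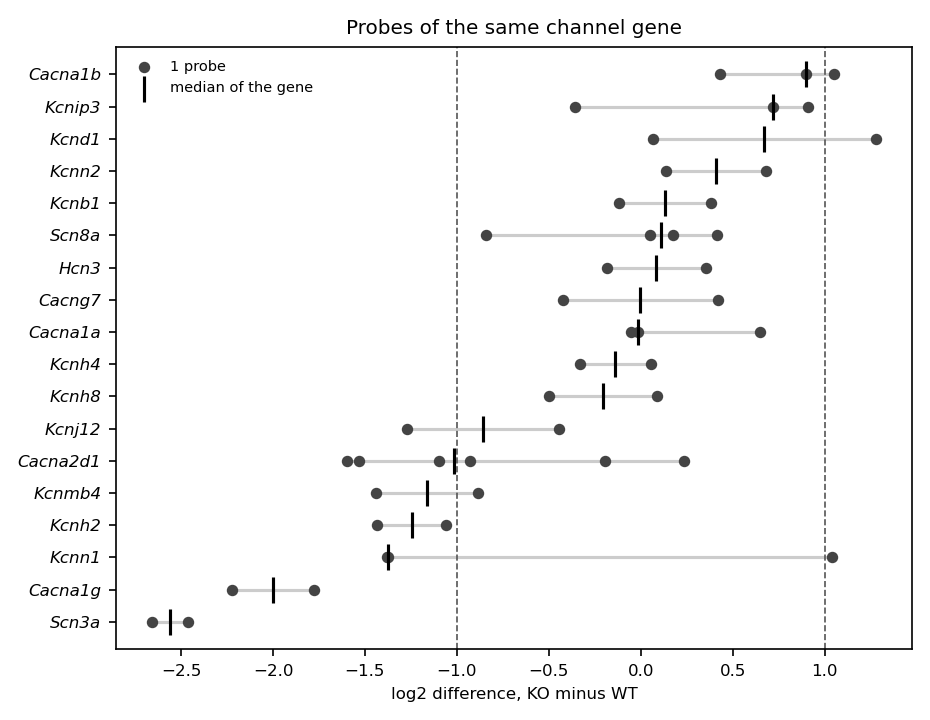
Log2 difference, KO minus WT (horizontal axis), of each measured probe of 18 channel genes with several measured probes (vertical axis). Points are probes, black bars the gene medians and dashed lines mark 2-fold; the probes of Scn3a and Cacna1g lie together past 2-fold, while those of Kcnn1 lie far apart.

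Probes of the same gene were compared where several were measured, in 20 genes. All probes of a gene lay on the same side of 0 in 10 of these genes. In 6 genes the probes spanned over 1 on the log2 scale, as the plot of probes by gene shows for Kcnn1, Cacna2d1, Scn8a, Kcnip3 and Kcnd1. The other 56 measured genes rest on a single measured probe. Beside a measured probe, 5 genes had another detected on the WT array alone with a bound of at least 2-fold, namely Cacna1d, Cacna1e, Cacna1g, Cacnb2 and Cacng4. In 3 genes, Kcnh6, Kcnj3 and Kcnj9, such a probe was detected on the KO array alone. The gene values of Cacna1d, Cacna1e and Kcnh6 lie within 2-fold. In 11 channel transcripts with measured probes at least 500 bases apart, the 3′ probe had the lower difference in 8, with a median of −0.45 for the 3′ probe minus the 5′ probe. Over all genes this held for 2377 of 3409 transcripts, with a median of −0.17, so signal along transcripts also differed between the arrays. The part of this in the channel results was not tested. Of the 277 channel probes, 4 shared at least 25 bases with a probe of another gene, among them a probe each of Scn1a and Scn3a, neither of which was measured.

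In many groups of channel genes within 500 kb of each other, some members had no value to compare. Only the neighbours Kcnj9 and Kcnj10 both lay past 2-fold. On chromosome 1, Kcnj9 was higher in KO (1.65) beside Kcnj10, which was lower (−1.25). On chromosome 7, the TARP gene Cacng8 differed by 0.75 beside Cacng6 at 1.39, with Cacng7 next to them. On chromosome 11, Cacng4 (−2.64) stands between Cacng1 and Cacng5, both below background. On chromosome 6, Kcna5 differed by 0.41 beside Kcna1 at −0.97 and Kcna6 at −0.64. These directions held for Kcnj9 and Kcnj10 under each alternative scaling.

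Proteins that anchor, traffic or tune channels were counted as a list of 30, of which 23 were measured, 8 were at least 2-fold lower in KO and 3 higher. Over all measured genes 8.81% were lower and 11.5% higher. The list's median difference was −0.49, against 0.10 over all genes. With spike-in centring 11 were lower and 0 higher, with normexp 2 were lower and 1 higher, and 2 were higher with quantile or loess normalization. Cntn2, an adhesion protein that gathers potassium channels beside the node of Ranvier, read 109 on the KO array and 588 on the WT array, 5.40-fold lower. Nrcam, which helps assemble sodium channels at the node, read 2533 on the KO array and 7432 on the WT array on its brightest probe, 3.43-fold lower. On the higher side, Fgf11, an intracellular partner of sodium channels, was 2.68-fold higher in KO and Sptbn4, the spectrin of the axon initial segment, 2.12-fold higher, both of them under 2-fold with spike-in centring (0.96 and 0.62 on the log2 scale for Fgf11 and Sptbn4). Fgf11 was at 0.99 on its brightest probe and Sptbn4 at 0.98 with normexp. The list's median stayed negative under each alternative that was run.

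Rest, the repressor of many neuronal genes that include channel genes, read 6205 on the KO array and 3192 on the WT array on its brightest probe. Its difference was 0.96 (1.94-fold), just under the 2-fold limit, and the shift of −0.46 with spike-in centring takes it further under. Of 9 genes of the REST repressor complex, 0 were at least 2-fold apart in either direction, with a median difference of −0.24. Over all measured genes 20.3% were that far apart, and a list of 9 is too short to set against that share. With spike-in centring 1 gene of the list was lower and the median was −0.70.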

How the data were processed

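Total RNA was labelled with Cy3 and hybridised as 1 sample per array, per the labels' protocols. The extraction text speaks of tissue, which cultured cells are not, and its details were set aside. The deposited files hold spot intensity values made with Agilent Feature Extraction, version 10.7.1.1 in the submitters' processing notes. The processed intensity was background-subtracted and detrended within each array, with low signals replaced by a surrogate, per the file headers. Mean and background intensity, deposited beside it, served for the alternative background correction, and the flags of 0 or 1 per spot that the authors deposited served for detection.

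From these, outlier spots were left out (155 on the KO array and 173 on the WT array), the spots of each probe were averaged as log2 values, and each array was centred on its 75th percentile over 56605 non-control probes (652 on the KO array and 864 on the WT array). Printed signals were scaled to the common value of 751. The deposited intensity has no log2 transform; log2 values were computed here. A probe counted as measured where it was well above background on both arrays and not saturated (0 spots were). Each gene was given the median log2 difference of its measured probes, from which the fold was taken. A fixed limit of 2-fold was used, and no test was run.

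Symbols were checked against a RefSeq table (GRCm38.p6): 223 probes matched by accession, 54 by symbol, and 0 symbols differed. Between repeated spots of 298 probes the pooled SD of log2 signal was 0.070 on the KO array and 0.065 on the WT array, which is error within an array only. The text names, per class, up to 4 genes each way past 2-fold, the 3 largest bounds each way among genes detected on 1 array, the 2 genes of highest mean signal, genes with probes 2-fold both ways, up to 2 genes each way of each related list, and Rest. Genes named beyond this rule were chosen after their values were seen. A few genes are counted but not reported by name. The members, classes and lists were chosen with earlier results of these data known.

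The steps were tested on simulated data. The simulation held only the noise between spots of an array and changes set past 2-fold, so their recovery was close to fixed in advance. It held no variation between samples and does not bear on how far calls from 1 array per group would repeat. Alternatives were quantile, loess and spike-in scaling, the percentile over measured probes, normexp with an offset of 50, no filter or a stricter one on dim probes, the brightest probe per gene, and limits of 1.5-fold and 3-fold. Python 3.11.15, pandas 2.3.3, numpy 2.4.6 and matplotlib 3.10.9 were used, with R 4.3.3 and limma 3.58.1 for the normalization alternatives.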

Additional observations from a re-analysis of the deposited data

How the results depend on the processing

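With the main settings 14 channel genes were at least 2-fold higher in KO, 15 at least 2-fold lower and 76 measured, with a median of 0.08. Quantile normalization gave 13 higher and 16 lower, the brightest probe per gene 14 and 16, and loess and the percentile over measured probes 14 and 15 each. Spike-in centring gave 8 higher and 20 lower, with a median of −0.38 that follows from its uniform shift of −0.46. Normexp background correction gave 8 higher and 7 lower, and the cause was not tested. A signal of at least 100 left 43 measured, 6 higher and 7 lower, and without a filter all 135 genes had a value, 19 of them higher and 18 lower, since surrogate signals then count. A limit of 1.5-fold gave 22 higher and 19 lower, and a limit of 3-fold gave 8 higher and 7 lower.

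Over the 6 alternatives of scaling, background correction and probe choice, Cacna1g, Cacng4, Kcnc1, Kcnd3, Kcnj2, Kcnn1 and Scn3a remained at least 2-fold lower in KO. Cacna1s, Kcnj3, Kcnk1, Kcnk5, Kcnk6, Kcnq5 and Kcnu1 remained at least 2-fold higher. All of these genes but Cacna1g, Kcnn1 and Scn3a rest on 1 measured probe. For them the choice of the brightest probe repeats the main value and could not change the call. The percentile over measured probes shifted every difference by the same small amount. The filters on dim probes are apart from the 6 alternatives. Without a filter Cacnb2, Kcnd3, Kcnip1, Kcnn1 and Kcnq5 lost the call, so that 11 of the 15 lower and 13 of the 14 higher genes were shared. With the stricter filter Cacnb2, Kcnc1, Kcnd3, Kcng1, Kcnj10, Kcnj2, Scn1a and Scn3a on the lower side and Cacna1s, Cacnb1, Cacng6, Kcnip2, Kcnj9, Kcnk13, Kcns3 and Kcnu1 on the higher side were no longer called. Of 528 values of 55 named genes over all alternatives, 459 kept their side of the limit. Another 60 in 25 genes fell inside it, 9 in 6 genes passed it, and 0 values of genes called with the main settings changed direction. Part of this was fixed in advance. The limits of 1.5-fold and 3-fold reuse the main differences, and spike-in centring shifts them all by −0.46, so none of these could reverse a called gene. The brightest probe repeats the value of a gene with 1 measured probe. The median of the K2P channels lay between 0.52 without a filter and 1.94 with the stricter one. No paired analysis was possible because each group has 1 array, and no array could be left out for the same reason. Depth has no counterpart here: signal over background limits what can be said, and genes under 100 are the least certain.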

Other observations

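Other genes that move sodium, potassium and calcium were read beside the channel genes, as lists chosen with earlier results of these data known. Over all 18671 measured genes, 11.5% were at least 2-fold higher in KO and 8.81% lower. Calcium release channels of the endoplasmic reticulum had 5 of 6 genes measured, 3 of them at least 2-fold higher in KO and 0 lower, with a median log2 difference of 1.07. With spike-in centring 2 were higher and 1 lower, with a median of 0.61, and Itpr1 was under 2-fold. With normexp or the brightest probe per gene 2 were higher. Ryr3, a ryanodine receptor, read 927 on the KO array and 120 on the WT array on 1 of its 3 probes, 7.74-fold higher. Itpr3, an IP3 receptor, read 6414 on the KO array and 2088 on the WT array, 3.07-fold higher. Ryr2, the cardiac ryanodine receptor, was detected on the KO array alone, with 50.004 on the KO array and 5.95 on the WT array. Itpr1 was 2.09-fold higher over 4 measured probes, while Itpr2 read 362 on the KO array and 563 on the WT array.

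Sodium-potassium pump subunits had 11 of 12 genes measured, 3 at least 2-fold higher in KO and 0 lower, with a median of 0.32. All measured genes had 11.5% higher and 8.81% lower, with a median of 0.10. Fxyd5, a regulatory subunit, read 329 on the KO array and 50.01 on the WT array, 6.57-fold higher. Atp1a4, the alpha subunit of sperm, read 81.0 on the KO array and 25.9 on the WT array, 3.13-fold higher. Its WT reading lies close to 21.3, the lowest signal called well above background there, so the size of its fold is uncertain. With quantile or spike-in scaling 2 pump genes were higher, and with spike-in centring the list's median was −0.14. With normexp 1 was higher, and Atp1a4 was under 2-fold.

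Of 21 measured cation channels whose names fall outside the pattern, 2 were at least 2-fold higher in KO and 2 lower, with a median of 0.14, shares near those over all genes. Trpc5 read 147 on the KO array and 29.97 on the WT array, 4.90-fold higher, and Cngb1, a cyclic nucleotide-gated channel subunit, was 2.05-fold higher. The WT reading of Trpc5 lies close to 21.3, the lowest signal called well above background there, so the size of its fold is uncertain. Cngb1 was under 2-fold with quantile (0.91), spike-in (0.58) and normexp (0.61) processing and on its brightest probe (0.57), and Unc79 (−0.72) and Kcne1l (−0.94) were under 2-fold with normexp. Unc79, an auxiliary subunit of the sodium leak channel, read 42.6 on the KO array and 145 on the WT array, 3.40-fold lower. Kcne1l read 162 on the KO array and 387 on the WT array, 2.38-fold lower. The leak channel Nalcn itself read 4946 on the KO array and 4627 on the WT array. Scn2a, the sodium channel alpha subunit of early axons, is named Scn2a1 on the array and so falls outside the pattern. None of its 4 probes was measured on both arrays, and its brightest read 29.7 on the KO array and 30.2 on the WT array.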
